A study of Rattus norvegicus with 9 samples.

Results

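The genes described here are 10 genes of the oligodendrocyte, the cell that wraps axons of the central nervous system in myelin. They are enzymes that make or feed its lipids (Ugt8, Fa2h, Gal3st1 and Aspa), the oligodendrocyte-enriched Ppp1r14a, the lineage regulators Sox10, Olig1 and Olig2, and the precursor markers Pdgfra and Cspg4. They were taken by gene symbol from the platform annotation of a rat expression bead array, which gave 8 probes, 1 each for 8 of the 10 genes, among 22523 probes and 13311 named genes in all. Fa2h and Gal3st1 were not analysed here, because no probe with those symbols was among the probes used. RNA came from the brain cortex of rats at an altitude of 7 km, of rats at 3 km and of rats at sea level, with 3 arrays per group. The submitters describe the altitudes as simulated and the rats at 7 km and 3 km as hypoxic. The labels state neither strain, age, sex and length of exposure nor how samples relate to animals, so the p-values measure only the spread between these samples, which may be technical.

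Myelin is rich in galactosylceramide and its sulfated form sulfatide. Ugt8 joins galactose to ceramide, Fa2h hydroxylates the fatty acids of these lipids, and Gal3st1 adds the sulfate. Aspa cleaves N-acetylaspartate, made by neurons, and frees acetate that oligodendrocytes can build into lipids. Ppp1r14a encodes an inhibitor of myosin phosphatase that was first described in smooth muscle. Precursor cells carry the receptor Pdgfra and the proteoglycan Cspg4, also called NG2. The transcription factors Olig1, Olig2 and Sox10 act from the precursor to the mature cell, and Sox10 directly drives myelin genes. Pdgfra is also expressed by fibroblasts of the meninges and Cspg4 by pericytes.

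Detection p-values give the rank of a probe's signal among the negative control beads of its array, and a probe was called detected at a detection p-value below 0.05. On 8 arrays 5881 to 6621 probes were detected and the Spearman correlations between arrays were 0.969 to 0.978. Sea level replicate 3 differed from the rest of the arrays. Its Spearman correlation with them was at most 0.660, it had 8170 detected probes, and choroid plexus and ependyma markers summed to a linear level of 8115, where sea level replicates 1 and 2 had 1762 and 2190. Each tested member's comparisons are therefore also given on the 8 arrays without it, which leaves 2 at sea level. Levels are background-corrected, quantile-normalised log2 signals. The cortical markers Slc17a7, Nrgn, Fezf2 and Lamp5 were detected on 9 of 9 arrays, Rasgrf2 on 0, Neurod2 and Rorb on 1 each, Camk2a on 3 and Neurod6 on 4.

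At 7 km the normalised log2 levels of Ppp1r14a, Olig1 and Ugt8 lay below every sea level array, while Aspa, Sox10, Pdgfra and Cspg4 overlapped. No member passed an adjusted p of 0.05 with all 9 arrays, and Ppp1r14a alone passed without sea level replicate 3. In bulk tissue, fewer oligodendrocytes and less of a transcript per oligodendrocyte cannot be told apart. The upstream windows of Ppp1r14a and Ugt8, whose probes had the smallest p-values of the members at 7 km, are shown with that of Aspa. The Aspa probe lay close to background and had a log2 difference near 0 with and without sea level replicate 3. Each window runs from 250 bases before to 50 after the RefSeq gene start in build GRCr8 and is written 5′ to 3′ on the gene's strand. Capitals mark matches, on either strand, to ACAAAG (the core of the SOX motif), to the E-boxes CAGCTG and CATCTG, and to ACGTG (a form of the core of the hypoxia response element). Other forms of these motifs, such as GCGTG, were not searched.
Ppp1r14a, chr1:93713852-93714151, plus strand: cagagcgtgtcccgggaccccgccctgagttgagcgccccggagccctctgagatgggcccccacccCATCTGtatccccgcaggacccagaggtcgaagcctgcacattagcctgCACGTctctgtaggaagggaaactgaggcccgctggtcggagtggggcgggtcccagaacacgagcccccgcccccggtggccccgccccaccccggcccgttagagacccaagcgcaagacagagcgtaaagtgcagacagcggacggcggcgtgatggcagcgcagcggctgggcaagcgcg
Ugt8, chr2:217007118-217007417, minus strand: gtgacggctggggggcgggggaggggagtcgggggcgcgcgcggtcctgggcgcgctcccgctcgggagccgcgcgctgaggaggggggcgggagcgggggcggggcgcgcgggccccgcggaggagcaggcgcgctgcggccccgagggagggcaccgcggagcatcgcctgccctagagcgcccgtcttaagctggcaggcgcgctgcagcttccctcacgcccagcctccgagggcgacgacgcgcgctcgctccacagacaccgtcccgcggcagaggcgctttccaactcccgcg
Aspa, chr10:58438988-58439287, minus strand: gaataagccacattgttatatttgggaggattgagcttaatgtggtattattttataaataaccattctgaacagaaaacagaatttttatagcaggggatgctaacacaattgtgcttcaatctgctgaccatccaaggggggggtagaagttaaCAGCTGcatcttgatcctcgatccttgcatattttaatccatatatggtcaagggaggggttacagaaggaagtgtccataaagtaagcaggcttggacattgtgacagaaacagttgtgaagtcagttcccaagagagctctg

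The Ppp1r14a window held 1 CATCTG, which begins at position -183 from the start, and 1 ACGTG, read as CACGT at position -134. The Aspa window held 1 CAGCTG at position -94, and the Ugt8 window held 0 matches to any of the 4 motifs. The windows also differ in base composition, with 79.3% G and C for Ugt8, 69.7% for Ppp1r14a and 40.3% for Aspa, against a median of 51.7% over all promoters. Over 33469 promoters of this length, 18.8% hold ACAAAG, 15.1% CAGCTG, 16.6% CATCTG and 19.3% ACGTG. The other windows in the table, of Fa2h, Gal3st1, Olig2, Pdgfra and Cspg4, held 0 matches. A match describes letters only and is not evidence of a bound site.

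Ppp1r14a was lower at 7 km than at sea level. Its log2 levels were 8.89, 8.91 and 8.43 on sea level replicates 1, 2 and 3, 8.46, 8.52 and 8.38 at 3 km, and 7.89, 8.15 and 8.00 at 7 km. Every 7 km array lay below every 3 km and every sea level array. The 3 km arrays lay below sea level replicates 1 and 2, and sea level replicate 3 lay among them. At 7 km against sea level the log2 difference was -0.73 ± 0.13 (SE, limma, n = 3 per group, adjusted p = 0.140). Without sea level replicate 3 it fell by 0.85 ± 0.069 (adjusted p = 0.0237), a 1.80-fold lower level. In the authors' value table, which is background-subtracted on a linear scale, the mean intensity of Ppp1r14a was 554 ± 99.3 (SD) at 7 km, 906 ± 77.8 at 3 km and 1059 ± 285 at sea level, each with n = 3.

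The mean level of Ppp1r14a at 3 km lay between those of the other groups in both fits. Every single 3 km array did so only when sea level replicate 3 was left out. The log2 difference of 3 km against sea level was -0.29 ± 0.13 with 9 arrays (limma adjusted p = 0.533) and -0.45 ± 0.069 with 8 (adjusted p = 0.104). That of 7 km against 3 km, which does not involve sea level, was -0.44 ± 0.13 (adjusted p = 1) and -0.40 ± 0.062 with 8 arrays (adjusted p = 0.288). Neither step passed. Among 20 alternative settings, Ppp1r14a at 7 km passed in 4, kept its sign in all 20, and ranged from -1.75 to -0.66 with limma adjusted p-values of 0.00194 to 0.501. The settings include scaling to equal medians, where the median over all probes was itself at -0.64. Of the 4 settings in which Ppp1r14a passed, 3 leave out sea level replicate 3. In the other, which weights arrays, that array has the lowest weight, 0.0439.

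Ugt8, the galactosyltransferase, was lower at both altitudes by nearly the same amount on the normalised log2 levels, without passing. The log2 levels of Ugt8 were 7.78, 7.97 and 7.81 at sea level, 7.52, 7.61 and 7.53 at 3 km, and 7.47, 7.51 and 7.51 at 7 km. All 9 arrays, sea level replicate 3 included, fell in the order of sea level, 3 km and 7 km, but the highest 7 km array and the lowest 3 km array had 7.51 and 7.52. The log2 difference of Ugt8 was -0.35 ± 0.056 at 7 km (limma adjusted p = 0.0900, n = 3 per group) and -0.30 ± 0.056 at 3 km (adjusted p = 0.189). On 8 arrays these were -0.29 ± 0.048 (adjusted p = 0.110) and -0.24 ± 0.048 (adjusted p = 0.177). Between 7 km and 3 km the difference was -0.06 with a 95% interval of -0.19 to 0.07, and -0.04 ± 0.043 on 8 arrays.

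The size of the Ugt8 difference varied with the background handling. At 7 km its detection p-values were 0.0376, 0.0279 and 0.0303, so it was just above background there. In the authors' value table the mean intensity of Ugt8 was 140 ± 22.2 (SD, n = 3) at 7 km, 190 ± 43.9 at 3 km and 393 ± 104 at sea level. The log2 difference at 7 km was -1.47 ± 0.25 in that table (limma adjusted p = 0.110) and -0.92 ± 0.13 without background correction (adjusted p = 0.0579). It passed in 3 of 19 alternatives, which again leave out or weigh down sea level replicate 3, with adjusted p-values of 0.0142 to 0.381, and was below 0 in all 19. The Ugt8 difference of 7 km against 3 km also varied, from -0.43 to -0.03 over the 19 alternatives, and did not pass in any.

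**Figure D1:**
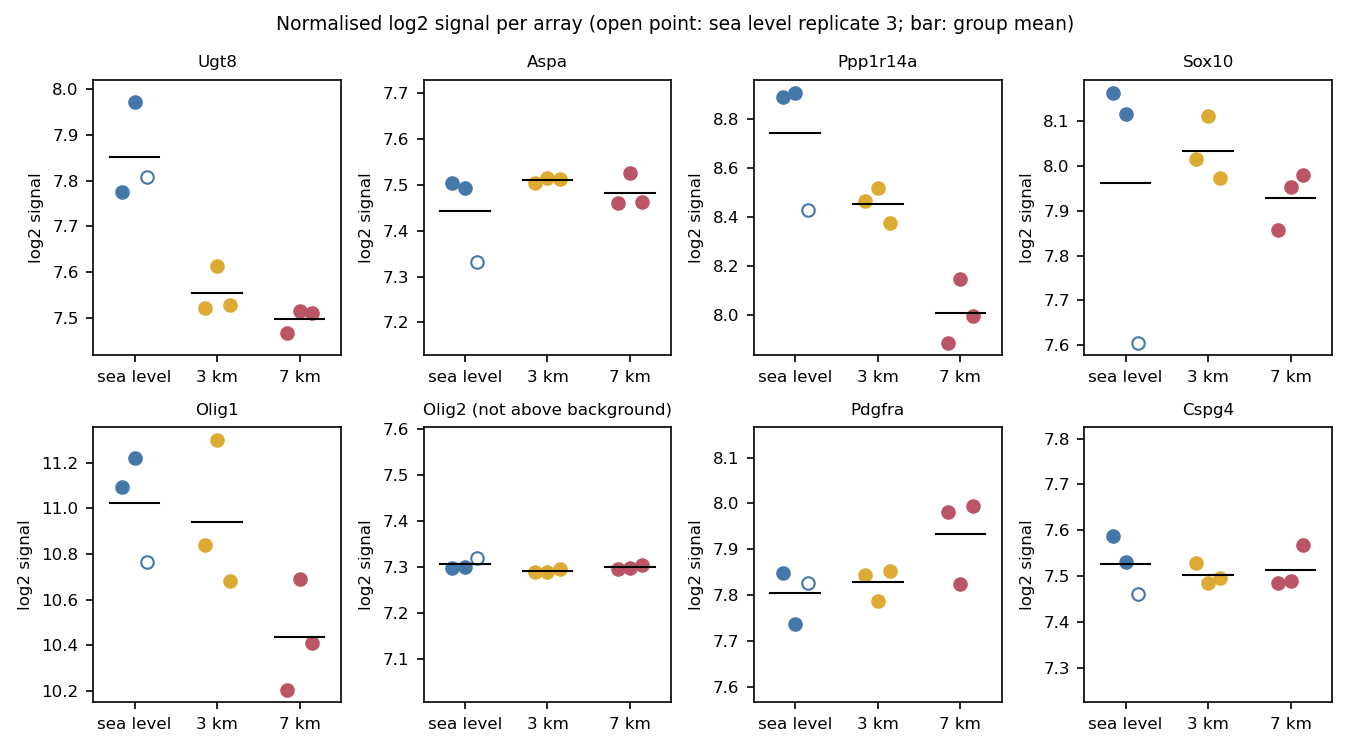
Normalised log2 signal (y axis) of each of the 8 probes on each array, by simulated altitude (x axis), with a bar at the group mean and an open point for sea level replicate 3. Ppp1r14a at 7 km lies at 7.89 to 8.15, below all other arrays, and Ugt8 at sea level lies at 7.78 to 7.97, above all arrays of either altitude; each panel has its own y range and none starts at 0.

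Aspa, aspartoacylase, did not pass in either fit, and its probe was also close to background. It was detected on 8 of 9 arrays, with a detection p-value of 0.178 on sea level replicate 3 and of 0.0267 to 0.0388 on the others. The log2 levels of Aspa were 7.50, 7.49 and 7.33 at sea level, 7.50, 7.51 and 7.51 at 3 km, and 7.46, 7.53 and 7.46 at 7 km. Apart from sea level replicate 3, the groups overlapped. The log2 difference at 7 km was 0.04 with a 95% interval of -0.08 to 0.16, and on 8 arrays -0.01 with an interval of -0.06 to 0.03 (limma adjusted p = 0.627 and 0.810). At 3 km it was 0.07 ± 0.050 with 9 arrays and 0.01 ± 0.018 with 8. Between the altitudes it was -0.03 ± 0.050 and -0.02 ± 0.017 (7 km minus 3 km). Over 19 alternative settings the Aspa difference ranged from -0.16 to 0.76 at 7 km and from 0.01 to 1.06 at 3 km. None of these passed. In the authors' value table Aspa had 20.4 on sea level replicate 3, against 146 and 133 on replicates 1 and 2. The size of the Aspa difference thus depended on the processing and on that array.

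Among the lineage regulators, Olig1 had a larger difference at 7 km than Sox10 in both fits, also without passing. Olig1 is a helix-loop-helix factor of precursors and myelinating cells. Its log2 levels were 11.09, 11.22 and 10.76 at sea level, 10.84, 11.30 and 10.68 at 3 km, and 10.20, 10.69 and 10.41 at 7 km. Every 7 km array lay below every sea level array, and 7 km replicate 2 lay just above the lowest 3 km array. The log2 difference of Olig1 was -0.59 ± 0.20 at 7 km (limma adjusted p = 0.397) and -0.08 ± 0.20 at 3 km (adjusted p = 0.815). On 8 arrays these were -0.75 ± 0.22 (adjusted p = 0.264) and -0.22 ± 0.22 (adjusted p = 0.800). Between 7 km and 3 km the difference of Olig1 was -0.51 ± 0.20 (adjusted p = 1), and -0.53 ± 0.20 on 8 arrays (adjusted p = 0.567). In the authors' value table its mean intensity was 2514 ± 298 (SD, n = 3) at 7 km, 3078 ± 427 at 3 km and 3096 ± 541 at sea level. There 7 km replicate 2, at 2833, lay above sea level replicate 3, at 2482, so the 7 km and sea level arrays of Olig1 overlapped.

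Olig2, the factor that specifies the lineage, was not detected above background on any array. Its detection p-values were 0.280 to 0.708, and no fold can be given. Olig1 and Olig2 are neighbours in the RefSeq table of GRCr8, with 0 protein-coding genes between them. The absence of a signal from the Olig2 probe describes this probe and not the gene's activity.

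Sox10 did not pass in either fit, and the size of its difference from sea level depended on a single array. The log2 levels of Sox10 were 8.16, 8.12 and 7.61 at sea level, 8.02, 8.11 and 7.97 at 3 km, and 7.86, 7.95 and 7.98 at 7 km. Sea level replicate 3 was the lowest of the 9 arrays, and the other sea level arrays were the highest. With 9 arrays the log2 difference at 7 km was -0.03 ± 0.14 and at 3 km 0.07 ± 0.14 (limma adjusted p = 0.890 and 0.775). Without sea level replicate 3 they were -0.18 ± 0.046 (limma adjusted p = 0.210) and -0.09 ± 0.046 (adjusted p = 0.591), and the arrays of either altitude no longer overlapped with sea level. For 3 km this was nearly a tie, with 8.09 on both 3 km replicate 2 and sea level replicate 2 in that fit. The difference of Sox10 for 7 km against 3 km was -0.10 ± 0.14 with 9 arrays and -0.09 ± 0.041 with 8.

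The precursor markers did not pass either, and Pdgfra had its mean highest at 7 km. Pdgfra, the platelet-derived growth factor receptor of precursors, had log2 levels of 7.85, 7.74 and 7.83 at sea level, 7.84, 7.79 and 7.85 at 3 km, and 7.98, 7.82 and 8.00 at 7 km. Replicates 1 and 3 at 7 km were the highest of the 9 arrays, and replicate 2 lay within the range of the other groups. The log2 difference of Pdgfra at 7 km was 0.13 ± 0.055 (limma adjusted p = 0.414, 95% interval -0.00 to 0.26), at 3 km 0.02 ± 0.055 (adjusted p = 0.809), and 0.10 ± 0.055 for 7 km against 3 km. On 8 arrays these differences of Pdgfra were 0.11 ± 0.050, 0.03 ± 0.050 and 0.09 ± 0.045. Its mean intensity in the authors' value table was 491 ± 79.3 (SD, n = 3) at 7 km, 407 ± 22.4 at 3 km and 358 ± 56.0 at sea level. Under scaling to equal medians the sign of Pdgfra turned, to -0.73 at 7 km, where the median over all probes was itself at -0.64.

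Cspg4 was near 0 in all 3 comparisons on the normalised log2 levels. The log2 levels of Cspg4 were 7.59, 7.53 and 7.46 at sea level, 7.53, 7.48 and 7.50 at 3 km, and 7.48, 7.49 and 7.57 at 7 km, so all groups overlapped. The log2 difference was -0.01 at 7 km with a 95% interval of -0.11 to 0.09, and -0.02 at 3 km with an interval of -0.12 to 0.07 (limma adjusted p = 0.859 and 0.750). It was 0.01 ± 0.042 for 7 km against 3 km. On 8 arrays these differences of Cspg4 were -0.03 ± 0.025, -0.04 ± 0.025 and 0.01 ± 0.023. Its detection p-values reached 0.0376, close to the limit of 0.05. Over 19 alternative settings the Cspg4 difference ranged from -0.31 to 0.08 at 7 km and from -0.35 to 0.04 at 3 km, without passing. On 8 arrays the 3 km and sea level ranges of Cspg4 no longer overlapped, with 7.62 at the nearest arrays of each.

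**Figure D2:**
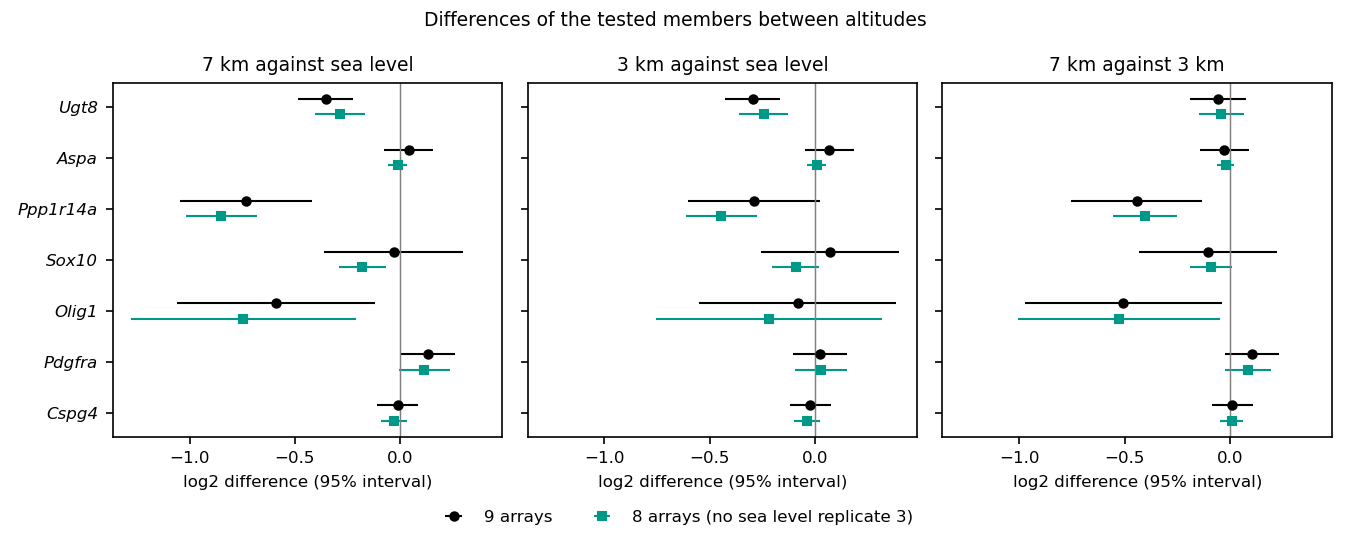
Log2 differences (x axis) of the 7 tested members with 95% intervals from limma, in a panel for each pair of altitudes, with all 9 arrays (circles) and without sea level replicate 3 (squares). Ppp1r14a, Olig1 and Ugt8 lie furthest to the left at 7 km, at -0.73, -0.59 and -0.35 with 9 arrays, and Pdgfra lies at 0.13.

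Of the 8 probes, 7 passed the detection filter and were tested, and all but Aspa were detected on 9 of 9 arrays. At 7 km against sea level 5 of the 7 were lower and 2 higher, and 0 passed, where 0.12% of 6656 tested probes did (0.105% lower and 0.015% higher). The median log2 difference of the 7 was -0.03, beside -0.01 over all tested probes. At an unadjusted p below 0.05 there were 3 of 7, against 11.4% of all probes. The arrays of the groups did not overlap in 3 of 7 members and in 24.7% of all probes, and all 3 members were lower, as were 12.5% of all probes. On 8 arrays 6 of 7 were lower with a median of -0.18, beside -2.35e-05 over all probes, and 1 passed, Ppp1r14a, where 0.308% of 6499 did (0.262% lower and 0.0462% higher). There 4 of 7 had an unadjusted p below 0.05 and 4 lay wholly below sea level, against 12.5% and 16.1% of all probes, and 32.4% did not overlap in either direction.

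At 3 km against sea level 4 of 7 members were lower and 0 passed, as did 0% of all probes with limma. Ugt8 was the 1 member of 7 with an unadjusted p below 0.05, against 8.07% of all probes, and the 1 that lay wholly below sea level, against 10.7% (19.5% in either direction). On 8 arrays 5 of 7 were lower, 0 passed, 2 had an unadjusted p below 0.05 against 9.48%, and 4, Ugt8, Ppp1r14a, Sox10 and Cspg4, lay wholly below sea level against 15.6% (30.6% in either direction). The 7 km against 3 km comparison also gave 0 calls, or 0% of all probes, with 2 of 7 members, Ppp1r14a and Olig1, at an unadjusted p below 0.05 against 2.7% of all probes. Ugt8 and Ppp1r14a lay wholly below 3 km, 2 of 7 against 7.71% of all probes (13.6% in either direction). On 8 arrays the counts were again 0, 2 and 2 of 7, beside 0%, 8.19% and 7.68% (13.6% in either direction). The comparisons of 7 km and 3 km with sea level share the sea level arrays. Levels in the strict order of sea level, 3 km and 7 km on 9 arrays occurred in 0.721% of probes, among them Ugt8. On 8 arrays they occurred in 0.969%, among them Ugt8 and Ppp1r14a.

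Among replicates of a group, several members were high or low on the same array. At 7 km, replicate 1 had the lowest level of its group for 6 of the 7 members, all but Pdgfra. At 3 km, replicate 2 had the highest for 5 of 7, and at sea level replicate 3 had the lowest for 5 of 7. Across arrays the Pearson correlation of Ppp1r14a with Olig1 was 0.89 on 9 arrays and 0.88 on 8, and of Ppp1r14a with Ugt8 0.81 and 0.87. That of Sox10 with Olig1 was 0.55 on 9 arrays and 0.92 on 8. Pdgfra ran the other way, with -0.87 and -0.88 against Olig1. These arrays share 3 group levels and 1 normalisation, so the correlations are descriptions only.

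Most markers of mature oligodendrocytes were also lower at 7 km. Of 32 myelin and mature oligodendrocyte symbols, which include Mbp, Mobp, Cnp and Mog, 22 had a probe and 19 were tested. At 7 km their summed linear level was 10471 to 15246, at 3 km 17414 to 21608, and at sea level 22651 to 30275, so the groups did not overlap. Against sea level, 18 of 19 had lower levels at 7 km (median log2 difference -0.56), and 0 passed, while 12 of 19 were lower at an unadjusted p below 0.05, which 11.4% of all probes had in either direction. The 12 include Pllp, which was detected on 3 arrays, all at sea level. Pllp passed the detection filter only through that group, so its lower level is not independent of the filter, and it was not tested on 8 arrays. On 8 arrays 16 of 18 were lower with a median of -0.46, and 1 passed, Omg, a glycoprotein of the myelin surface. At 3 km against sea level 15 of 19 were lower and 4 higher with a median of -0.24, and 0 passed. At an unadjusted p below 0.05 there were 7 lower and 2 higher of 19, against 8.07% of all probes in either direction. The higher genes were Cryab, a small heat shock protein, at 0.75 ± 0.11, and Mobp, a myelin protein, at 0.70 ± 0.25. On 8 arrays 13 of 18 were lower at 3 km with a median of -0.17. For 7 km against 3 km 18 of 19 were lower with a median of -0.34, and on 8 arrays 17 of 18 with a median of -0.36, and 0 passed in either. Mag was detected on 0 arrays and Opalin on 1. The part of a general shift of this cell type in the values of Ppp1r14a, Olig1 and Ugt8 was not tested.

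Other genes of sphingolipid and acetate metabolism lay on both sides of 0 at 7 km. Of 34 symbols 23 had a probe and 16 were tested, of which 10 were lower and 6 higher, with a median log2 difference of -0.05 and 0 calls. At an unadjusted p below 0.05, which 11.4% of all probes had, there were 3 of 16, all lower. These were Acss2, which turns acetate into acetyl-CoA, at -0.34 ± 0.057, Cers2, the ceramide synthase for very long acyl chains, at -0.31 ± 0.061, and Gltp, a glycolipid transfer protein, at -1.06 ± 0.28 (limma adjusted p = 0.109, 0.156 and 0.308). The next was Sphk1, a sphingosine kinase, at 0.13 ± 0.056 (adjusted p = 0.414), or 0.05 ± 0.026 on 8 arrays. On 8 arrays the values were -0.23 ± 0.031 for Acss2, -0.29 ± 0.053 for Cers2 and -0.73 ± 0.17 for Gltp. Acss2 had nearly the same log2 difference at 3 km, -0.33 ± 0.057 (adjusted p = 0.159), as did Ugt8. At 3 km 9 of 16 were lower with a median of -0.05 and 0 calls, and on 8 arrays 10 of 16. For 7 km against 3 km 8 of 16 were lower in both fits, with a median of 0.01 on 9 arrays and 0 calls.

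Other lineage regulators were mostly dim. Of 30 symbols 21 had a probe and 7 were tested, with 4 lower and 3 higher at 7 km, a median log2 difference of -0.13 and 0 calls. At an unadjusted p below 0.05 there were 5 of 7, 3 lower and 2 higher, against 11.4% of all probes, and without sea level replicate 3 there were 2 of 7, 1 lower and 1 higher, against 12.5%. Lingo1, a membrane protein that restrains myelination, had -0.87 ± 0.21 and was nearly as low at 3 km, with -0.82 ± 0.21 (limma adjusted p = 0.281 and 0.380). Nkx6-2, a homeodomain factor of myelinating oligodendrocytes that is also in the myelin list, had -0.45 ± 0.18 and Id2, an inhibitor of helix-loop-helix factors, -0.22 ± 0.088 (adjusted p = 0.414 each). Tcf7l2, a Wnt pathway factor of maturing oligodendrocytes, had 0.24 ± 0.077 (adjusted p = 0.377). On 8 arrays these were -0.68 ± 0.18 for Lingo1, -0.28 ± 0.16 for Nkx6-2, -0.12 ± 0.059 for Id2 and 0.13 ± 0.049 for Tcf7l2. The Tcf7l2 probe lay close to background, with detection p-values of 0.0182, 0.0170 and 0.0533 at sea level. Its difference at 7 km ranged from 0.05 to 1.54 over the alternatives, so its size is uncertain. At 3 km 4 of 7 were lower with a median of -0.09, and for 7 km against 3 km 3 of 7 with a median of 0.02, with 0 calls in each and the same counts on 8 arrays.

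Other genes of precursors and newly formed oligodendrocytes divided evenly at 7 km. Of 17 symbols 13 had a probe and 6 were tested, 3 lower and 3 higher, with a median log2 difference of -0.03 and 0 calls. An unadjusted p below 0.05 was reached by 2 of 6, against 11.4% of all probes. Vcan, the proteoglycan versican, was detected on all 3 km and sea level arrays but on 1 of 3 arrays at 7 km, with detection p-values of 0.0715, 0.0667 and 0.0448. Its fitted difference of -0.13 ± 0.031 (limma adjusted p = 0.246) therefore does not measure the size of a change, and it ranged from -1.38 to -0.08 over the alternatives. Sirt2, a deacetylase found in myelin, had -0.10 ± 0.036 (adjusted p = 0.414). Bcas1, a gene of newly myelinating cells, had -0.55 ± 0.35 and Gpr37l1, a receptor also made by astrocytes, 0.62 ± 0.43 (adjusted p = 0.434 and 0.448). Gpr37l1 on sea level replicate 3 was 8.98 against 10.72 and 10.56 on sea level replicates 1 and 2, and on 8 arrays its difference was 0.07 ± 0.18. At 3 km 5 of 6 were lower with a median of -0.07, and on 8 arrays 6 of 6. For 7 km against 3 km 3 of 6 were lower in both fits, with a median of 0.01 on 9 arrays. Neither comparison gave a call.

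**Figure D3:**
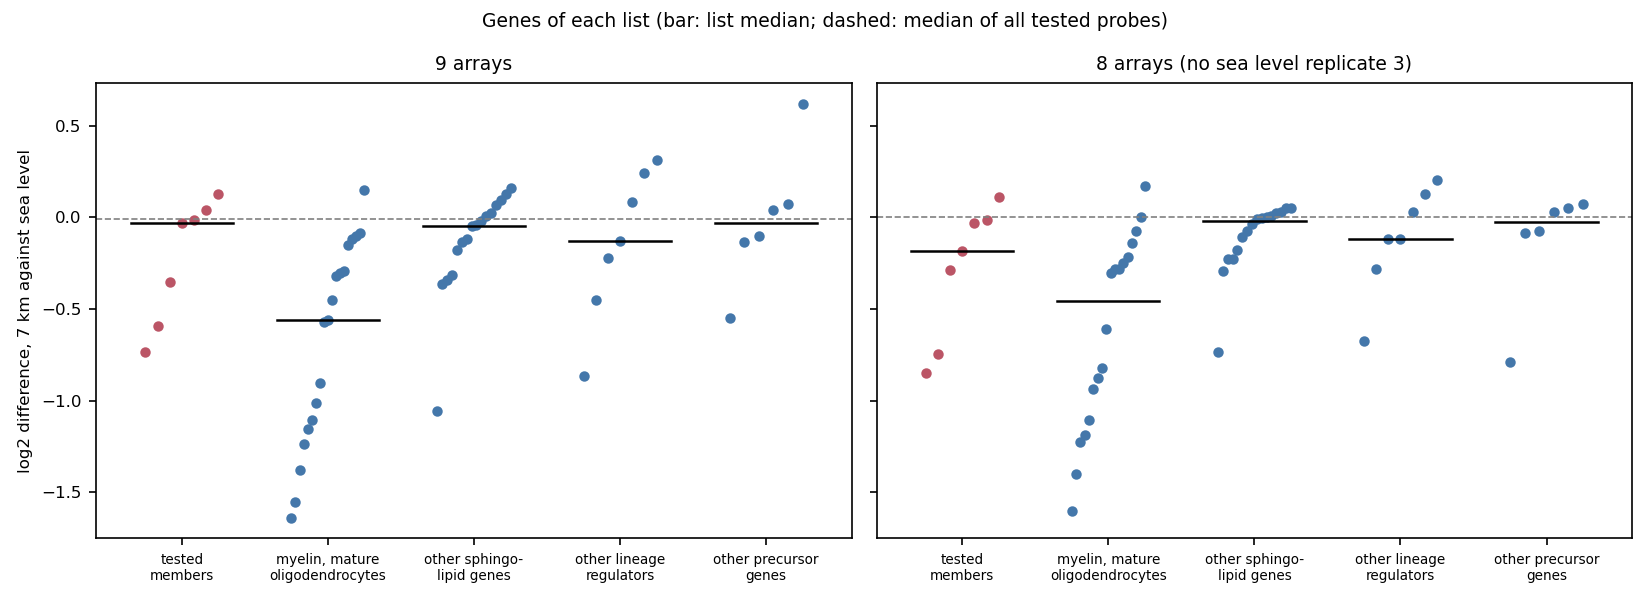
Log2 difference of 7 km against sea level (y axis) for each tested gene of 5 groups (x axis), with all 9 arrays on the left and without sea level replicate 3 on the right; bars are list medians and the dashed line is the median of all tested probes. The myelin list has a median of -0.56 with 9 arrays, and the other lists have medians of -0.13 to -0.03.

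Markers of other cell types had 0 calls at 7 km with limma, in each list and in both fits. The counts that follow are of genes at an unadjusted p below 0.05 on 9 arrays, which 11.4% of all probes had. Of tested excitatory neuron markers 6 of 6 were lower, 1 of them at that p, and of interneuron markers 6 of 8 were lower, 1 at that p. Of astrocyte markers 4 of 8 were lower, and the 1 at that p was higher. Of microglia markers 1 of 5 was lower, with 1 lower and 2 higher at that p. Of endothelial markers 1 of 4 was lower, with 1 lower and 1 higher at that p, the higher being Vwf, von Willebrand factor, at 1.79 ± 0.61. The summed linear level of the endothelial list was 2820 to 4884 at 7 km and 2814 to 4515 at 3 km, wholly above the 1873 to 2255 at sea level. The meningeal list, whose cells share Pdgfra, had 5 of 7 lower, with 1 higher gene at that p, Fn1, and a summed linear level of 5468 to 11413 at 7 km, 7186 to 9188 at 3 km and 7877 to 15040 at sea level. The pericyte list, whose cells share Cspg4, had 1 tested member of 9 with a probe, Vtn, whose level was 202 to 266 at 7 km and 220 to 230 at sea level. The choroid plexus and ependyma list had 2 of 3 lower, with Enpp2 lower and Kcnj13 higher at that p. Its summed level was 982 to 1267 at 7 km and 997 to 1130 at 3 km, wholly below the 1762 to 8115 at sea level. Ttr, the other lower gene of this list and part of the sum, was detected on 3 arrays, all at sea level. Ttr passed the detection filter only through that group, so its lower level is not independent of the filter. Enpp2, at -1.64 ± 0.40, is in both this list and the myelin list. The part of the endothelial and choroid plexus differences in the members' values was not tested. The summed level of the excitatory neuron list was lowest on 7 km replicate 1, at 9740 against 13576 to 16413 elsewhere. That array was also the lowest of all 9 for 3 members, Ugt8, Ppp1r14a and Olig1, and the part of either in the other was not tested. Without it the log2 difference of Ppp1r14a at 7 km was -0.69 ± 0.16, of Ugt8 -0.36 ± 0.070 and of Olig1 -0.46 ± 0.21.

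The named genes most like each member were found by Pearson correlation of log2 levels over 4855 genes on 9 arrays and 4853 on 8, as a description of arrays that share 3 group levels. For Ppp1r14a they were Ninj2, Carhsp1 and Dbndd2 on 9 arrays (0.96, 0.95 and 0.95) and Tprn, Ogfod3 and Car2 on 8 (0.98, 0.97 and 0.97). For Ugt8 they were Klf9, Asap1 and Scg3 on 9 arrays (0.95, 0.94 and 0.94) and Asap1, Omg and Acss2 on 8 (0.97 each). Olig1 was closest to Cnp on 9 arrays, with 0.98, then Carhsp1 with 0.92 and Klk6 with 0.90, and on 8 arrays to Tspan2, Cnp and Ano4 (0.98, 0.98 and 0.97). Sox10 was closest to S100a16, Scamp4 and Sema7a on 9 arrays (0.98, 0.93 and 0.93) and to Ermp1, Tspan2 and Mpc1 on 8 (0.99, 0.95 and 0.94). Pdgfra was closest to Fam110b, Fcgrt and Plod2 on 9 arrays (0.95, 0.92 and 0.90) and to Plod2, Fam110b and Zfp36l1 on 8 (0.96, 0.95 and 0.94). For Cspg4 they were Ssrp1, Faim and Ocel1 on 9 arrays (0.91, 0.91 and 0.88) and Ssrp1, Ndrg1 and Lag3 on 8 (0.96, 0.92 and 0.91).

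**Figure D4:**
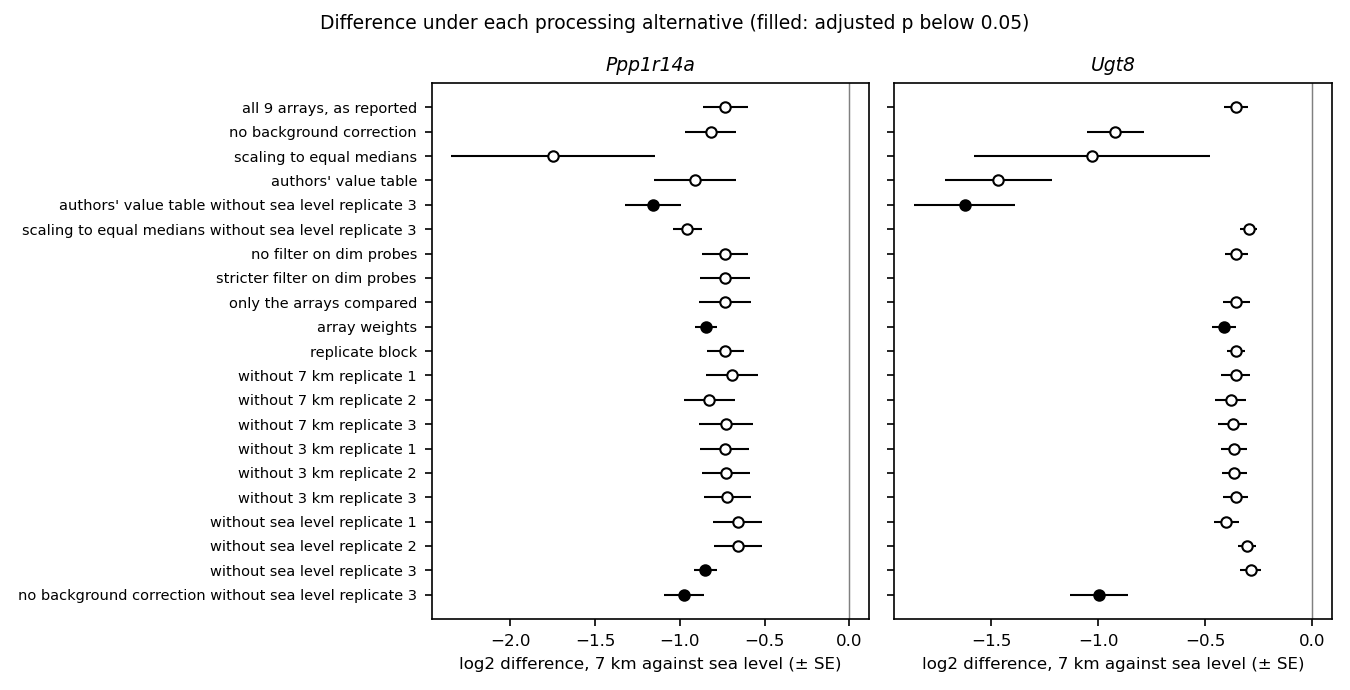
Log2 difference of 7 km against sea level with its SE (x axis) for Ppp1r14a and Ugt8 under each processing alternative (y axis), with filled points where the limma adjusted p was below 0.05. All points lie below 0, from -1.75 to -0.66 for Ppp1r14a and from -1.62 to -0.29 for Ugt8, and Ppp1r14a is filled in 4 settings and Ugt8 in 3. Under scaling to equal medians the median over all probes was itself at -0.64.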

How the data were processed

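Total RNA was labelled and hybridised to bead arrays, per the labels' protocols. The deposited table holds signal intensities that are not normalised, per the file headers, each with a detection p-value as deposited. The authors' value table holds linear intensities for 21675 probes, many below 0, with nearly equal array means, and its method is not given. No genome build is named in these files. Of 22523 probes 13353 had 1 gene symbol in the platform annotation, 0 had several and 9170 had none. With limma 3.58.1 in R 4.3.3, neqc corrected the background from negative controls inferred from the detection p-values (offset 16) and quantile-normalised log2 intensities. Probes detected on at least 3 arrays were tested with lmFit and eBayes, 3 groups in 1 model, with Benjamini-Hochberg adjustment over all tested probes and a threshold of 0.05. The model was tested on simulated data. Precision is limited by 3 arrays per group. Named genes were all members, up to 4 genes of each pathway list and up to 2 of each cell type list by p, and the 3 genes most correlated with each member detected on 9 arrays. Members and lists were chosen with earlier results of these data known. Alternatives covered background, scaling, filter, arrays left out, weights, a replicate block and the authors' value table (values under 16 set to 16). A fit with no background correction and without sea level replicate 3 was added after seeing the data.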

Additional observations from a re-analysis of the deposited data

How the results depend on the processing

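Ppp1r14a, Ugt8 and Olig1 stayed lower at 7 km than at sea level under every alternative run, with Olig1 between -1.63 and -0.29. The alternatives include scaling to equal medians, which put the median over all probes at -0.64 in this comparison. For 7 km against sea level the count of probes past the threshold, 8 with all arrays, was 0 under scaling to equal medians, under the stricter filter, with only the arrays compared and with the replicate block, 2 under scaling to equal medians without sea level replicate 3, 13 in the authors' value table, 34 in that table without sea level replicate 3, 58 with no background correction and without that array, and 176 with array weights, and leaving out each array in turn gave 0 to 20. Member calls, 0 with all arrays, were 2 in the authors' value table without sea level replicate 3, with array weights and with no background correction without that array, and 0 to 1 when each array was left out, the 1 being without sea level replicate 3. For 3 km against sea level the count of 0 (537 at an unadjusted p below 0.05) became 3 in the authors' value table, 17 in it without sea level replicate 3, 17 with no background correction without that array, 1 with no filter and 120 with array weights, with 2 members (Ugt8 and Ppp1r14a), and 0 to 1 when each array was left out. For 7 km against 3 km the count of 0 (180 unadjusted) became 1 in the authors' value table, 4 in it without sea level replicate 3, 1 under scaling to equal medians without that array, and 0 when each array was left out. The iteration that estimates array weights stopped before it converged.

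Signs turned as follows, on the log2 scale, and the cause was not tested. At 7 km against sea level, Aspa was -0.16 in the authors' value table, -0.029 under scaling to equal medians and -0.078 with no background correction, each without sea level replicate 3, and -0.00080 with array weights, and leaving out each array gave -0.013 to 0.071. Sox10 was 0.23 in the authors' value table, 0.019 with no background correction, and -0.18 to 0.071 when each array was left out. Scaling to equal medians gave -0.73 for Pdgfra, -0.12 for Sphk1 and -0.55 for Gpr37l1 (-0.18 without sea level replicate 3). Cspg4 was 0.083 in the authors' value table and -0.041 to 0.019 when each array was left out. At 3 km, Sox10 was -0.43 under scaling to equal medians, -0.072 with array weights and, without sea level replicate 3, -0.18 in the authors' value table, -0.038 under scaling and -0.16 with no background correction, and -0.092 to 0.18 when each array was left out. Olig1 was -0.27 to 0.048 and Pdgfra -0.010 to 0.047 when each array was left out, and Pdgfra was -0.70 under scaling to equal medians. Cspg4 at 3 km was 0.042 in the authors' value table and -0.040 to 0.0070 when each array was left out. At 7 km against 3 km, scaling to equal medians, with and without sea level replicate 3, gave -0.023 for both Pdgfra and Cspg4, and leaving out each array gave -0.016 to 0.028 for Cspg4. That scaling put the median over all probes at -0.64, -0.55 and -0.06 in the 3 comparisons, and the authors' value table put it at 0.09, 0.12 and -0.01.

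The labels number replicates but state no shared animal or batch. Deviations of same-numbered arrays correlated at 0.013 to 0.305 over 9 pairs, all above 0, and those of others at -0.303 to 0.277 over 18. These overlapping ranges do not settle whether same-numbered arrays belong together. The numbers were not taken as pairs, because the labels state none. With the replicate block Ppp1r14a at 7 km was -0.73 ± 0.11 (limma adjusted p = 0.140) and no member passed. The stricter filter left Ppp1r14a and Olig1 of the members. Dim probes (Ugt8, Aspa, Cspg4) lie close to the background, which limits the size of any fold.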
